A study of Homo sapiens with 8 samples.

Results

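MHC class II molecules are the surface proteins that show peptides to CD4+ T cells, and the RNAs examined here are those of 8 class II HLA genes, of the invariant chain CD74 and of the class II transactivator CIITA. These 10 genes were chosen by name, with earlier results of these data known. Every transcript that GENCODE v44 assigns to one of them was summed, 10 of the 62639 genes and 86 transcripts in all. The cells were MOLM-13, a human acute myeloid leukemia cell line carrying a doxycycline (dox) inducible shRNA. The shPTBP1 group (genotype label PTBP1 KD) and the shSCR group (scrambled shRNA, labelled as control) had 4 biological replicates each, and all 8 cultures received dox for 9 days. Each group rests on 1 shRNA, and any effect of that shRNA other than on PTBP1 cannot be told apart from the KD.

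Class II heterodimers of an alpha and a beta chain are made in the endoplasmic reticulum, where the HLA-DR, HLA-DP and HLA-DQ pairs assemble with CD74. CD74 fills the peptide groove and carries the complex to endosomes, where cathepsins cut it down to a short remnant that HLA-DM then exchanges for peptide. Transcription of the class II genes depends on CIITA, a coactivator that binds no DNA itself but is recruited by the RFX and NF-Y factors on the X and Y boxes of class II promoters. Among blood cells the products are best known on B cells, monocytes and dendritic cells, and their loss on leukemic blasts is known from relapse after stem cell transplantation.

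RNA was read as nanopore cDNA, and the libraries held between 1528449 and 1613342 counts. PTBP1 itself, counted 65, 90, 64 and 78 times in shSCR replicates 1 to 4, was counted 10, 15, 13 and 23 times in the shPTBP1 replicates, which is 0.209 of the control level (95% interval 0.151 to 0.291, edgeR adjusted p = 7.2e-05). Of the 7597 genes that passed the filter on low counts, edgeR's quasi-likelihood test called 242 lower and 179 higher in the shPTBP1 libraries at a Benjamini-Hochberg adjusted p under 0.05, and the median log2 fold change of all tested genes was -0.00. With limma-trend on the CPM of the authors, scaled by library total, the split was 272 lower and 129 higher. The biological coefficient of variation was 10.3%. Of 12 myeloid markers 9 were tested, with CSF1R called lower and CD68 higher by edgeR. DESeq2 called CD68 higher and gave no adjusted p for CSF1R (unadjusted p = 0.0127). Limma-trend called CSF1R lower (adjusted p = 0.039) and CD68 higher (adjusted p = 0.029). The T cell and dendritic cell markers were listed at 0 in every library, and the B cell markers summed to between 2.6 and 6.0 CPM. SPI1 and CD14, which myeloid cells are known to express, had 1 count each over all 8 libraries, so a gene at or near 0 in these files cannot be taken to be silent.

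The 8 HLA genes lie together on chromosome 6 between positions 32439878 and 33089696 (GRCh38), CD74 on chromosome 5 from 150401637 to 150412969, and CIITA on chromosome 16 from 10866222 to 10943021. Promoter windows (250 bases before to 50 after each start) were taken from RefSeq, GRCh38.p14, where 8 of the 10 genes matched. HLA-DRA and CIITA did not match. Each window was searched on both strands for the X box core, which was spelled AG, any 2 bases, AC, any base and GAT, and for the Y box core, spelled CCAAT. The X core was found in 4 of the 8 matched genes and in 2.29% of the 35116 promoters in the table, and CCAAT in 7 of 8 against 34.6%. An X core followed 20 to 45 bases further on by CCAAT on the other strand was present in 3 members and in 19 promoters of the whole table (0.0541%). Of the 17 genes with such promoters, 5 were HLA class II genes, namely HLA-DRB1, HLA-DQB1, HLA-DMA, HLA-DRB5 and HLA-DOA. The limits of this spacing were set after the windows had been seen.

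The windows of these 3 members are shown because they hold the letters that class II genes are known for, with the X core and the CCAAT of the other strand (read here as ATTGG) in capitals, all on the minus strand of chromosome 6.
HLA-DRB1, chr6:32589882-32589935: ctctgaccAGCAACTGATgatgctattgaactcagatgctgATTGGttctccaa
HLA-DQB1, chr6:32666733-32666786: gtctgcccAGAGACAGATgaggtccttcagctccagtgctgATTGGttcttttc
HLA-DMA, chr6:32953164-32953218: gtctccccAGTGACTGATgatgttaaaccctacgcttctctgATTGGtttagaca
The distance between the first bases of the motifs was 33 bases in HLA-DRB1 and HLA-DQB1 and 34 in HLA-DMA, and the X core began 79, 121 and 113 bases before the respective starts. In HLA-DMB an X core stood 88 bases before the start with no such CCAAT after it, and its CCAAT overlapped a further X core of the other strand. HLA-DQA1 and HLA-DPB1 held CCAAT alone, and the HLA-DPA1 windows, of which the table lists a pair, held neither. The CD74 window held CCAAT once, 53 bases before the start on the gene's own strand, and no X core in these letters.
CD74, chr5:150412939-150412983, minus strand: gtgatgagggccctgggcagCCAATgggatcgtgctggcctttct
A match of letters is a description of the reference sequence, not of a bound site in these cells.

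**Figure D1:**
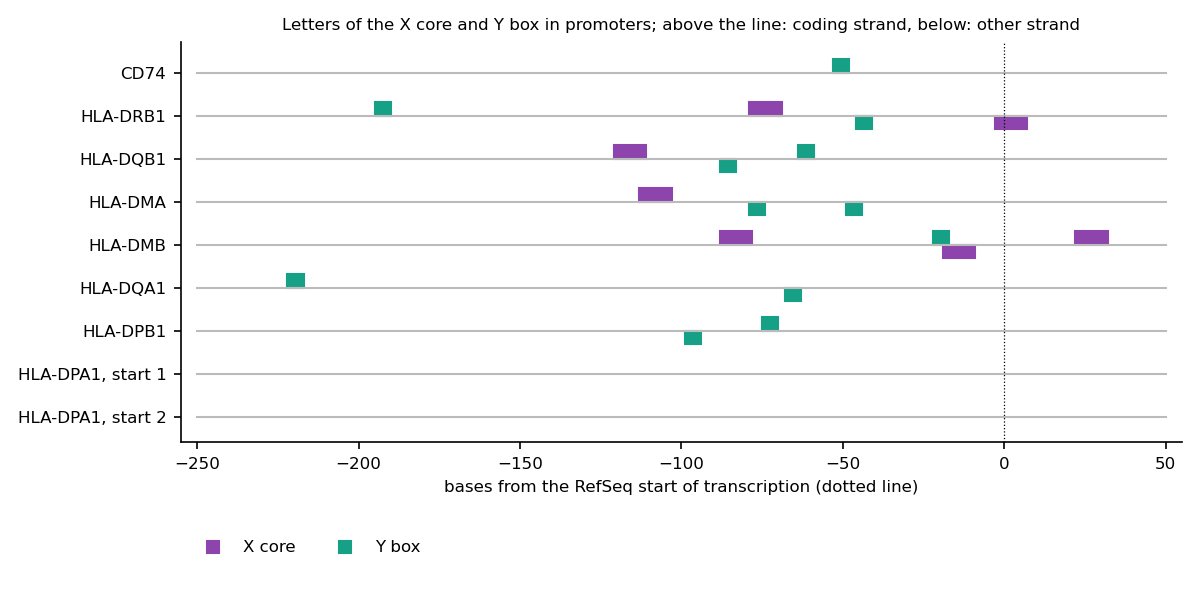
Positions of the X core (purple) and the Y box (green) in the RefSeq promoter windows of the members, in bases from the start of transcription on the x axis, with 1 line per promoter. Boxes above the line are on the strand of the gene and boxes below it on the other strand; in HLA-DRB1, HLA-DQB1 and HLA-DMA an X core above the line is followed 33 or 34 bases further on by a Y box below it.

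CD74 was by far the most abundant member, and most of the class II genes it serves were close to the limit of detection. For a description across genes, normalized counts per 1000000 (CPM) were divided by the length in kb of the transcripts counted. On this scale the mean of CD74 over the 8 libraries was 182 CPM per kb, above 96.0% of the 16474 genes with a count. HLA-DRB1 had 14.0, HLA-DMA 8.38, HLA-DRA 1.57, HLA-DQB1 1.53 and HLA-DMB 0.180 CPM per kb. CD74 was above HLA-DRB1 in 8 of 8 libraries, HLA-DRB1 above HLA-DMA in 7 of 8, HLA-DMA above HLA-DRA in 8 of 8, and HLA-DRA above HLA-DQB1 in 5 of 8, so that the last pair was not separated. Whether counts of these long reads rise with transcript length, as the division assumes, was not tested. Without it the means were 236 CPM for CD74, 17.2 for HLA-DRB1 and 9.09 for HLA-DMA. HLA-DQB1 (2.17 CPM) then stood above HLA-DRA (1.93 CPM), the reverse of their order per kb. HLA-DPA1 and HLA-DQA1 had a single count each, HLA-DMB 3 counts, and HLA-DPB1 and CIITA were listed at 0 in all libraries. A count of 0 in all libraries allows up to 0.238 CPM. Of the 86 member transcripts, 17 had any count.

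In reading the HLA values it matters that the authors kept only reads above a mapping quality of 50 on the reference genome, that class II genes are highly polymorphic, and that their near-identical copies can share reads. HLA-DRB3 and HLA-DRB4, which some people carry beside HLA-DRB1, are not in the annotation used here, and HLA-DRB5 had 2 counts, both in shSCR replicate 2. Reads of such copies could be counted as HLA-DRB1 or lost, so the identity of HLA-DRB1 counts is uncertain. HLA-B, a class I gene, had 2 counts in all beside 253 and 302 mean CPM of HLA-C in the shPTBP1 and shSCR groups. Whether the filter set these low values was not tested.

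**Figure D2:**
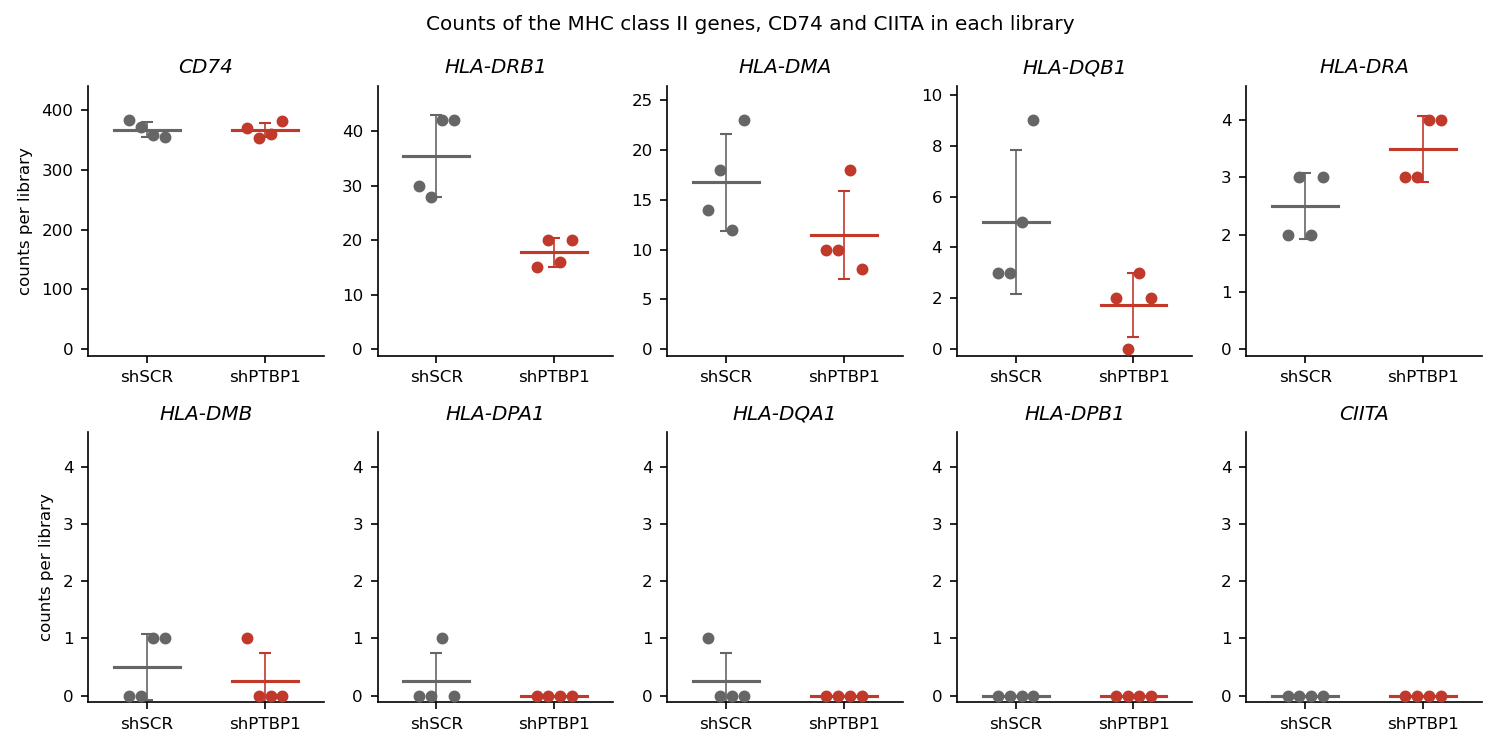
Counts (y axis, linear from 0) of the 10 members in each library, with a point per library, the mean as a line and the SD as error bars, n = 4 libraries per group. The HLA-DRB1 points of shPTBP1 (15 to 20 counts) all lie below those of shSCR (28 to 42), whereas the CD74 points overlap at 354 to 382 and 355 to 383 counts.

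Of the 10 members, 3 were tested (CD74, HLA-DRB1 and HLA-DMA), 5 were below the filter and 2 were listed at 0. HLA-DRB1, the beta chain of HLA-DR, was lower after PTBP1 KD, and it was the single member called, against 3.19% of all tested genes called lower. No member was called higher by edgeR, DESeq2 or limma-trend, nor at an unadjusted p under 0.05 by any of them (0 of 3 tested by edgeR, against 2.36% of all tested genes at the adjusted threshold). HLA-DRB1 was also the 1 of 3 tested members whose groups did not overlap, which was so for 12.7% of all tested genes.

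HLA-DRB1 (ENSG00000196126.12) was counted 30, 28, 42 and 42 times in shSCR replicates 1 to 4 and 15, 20, 16 and 20 times in shPTBP1 replicates 1 to 4. The highest shPTBP1 library did not reach the lowest shSCR library. The normalized level was 22.8 ± 5.42 CPM (SD, n = 4) in shSCR and 11.5 ± 1.79 CPM (SD, n = 4) in shPTBP1. This was 0.507 of the control level, or -0.98 on the log2 scale (SE 0.22, 95% interval -1.45 to -0.51, adjusted p = 0.0213 by edgeR). The exact two-sided permutation test of the log2 CPM gave p = 0.0286, the smallest p that 4 against 4 libraries allow. The edgeR call was lost in 4 of the 8 fits that left out 1 library, with an adjusted p of 0.0553 without shPTBP1 replicate 1, 0.0724 without shPTBP1 replicate 3, 0.0614 without shSCR replicate 3 and 0.0693 without shSCR replicate 4, while the log2 fold change stayed between -1.08 and -0.87. In bulk RNA, fewer cells with the transcript and less of it per cell cannot be told apart. All counts of the gene were on HLA-DRB1-201, a coding transcript.

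CD74 (ENSG00000019582.17) was counted 383, 372, 359 and 355 times in shSCR replicates 1 to 4 and 370, 354, 360 and 382 times in shPTBP1 replicates 1 to 4. The groups overlapped over nearly their whole range. Levels were 235 ± 5.0 CPM (SD, n = 4) in shSCR and 237 ± 5.0 CPM (SD, n = 4) in shPTBP1, with a log2 fold change of 0.02 (95% interval -0.11 to 0.15, edgeR adjusted p = 0.927). As a fold, the interval runs from 0.924 to 1.11 times the control level. Over the 8 libraries its log2 CPM spanned no more than 0.10. The genes whose log2 CPM followed CD74 most closely, of 3682 with a mean of at least 50 counts, were N4BP2L2 (Pearson r = 0.963), SLC2A9 (0.95), MELK (0.907), BARD1 (0.889) and HSPA14 (0.884). These 8 libraries share groups and depth, and with so narrow a range of CD74 the correlations are a description only.

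Because both genes were read in the same libraries, HLA-DRB1 was also expressed per 100 CD74 counts, a ratio chosen after the values had been seen. It was 9.72 ± 2.36 (SD, n = 4) in shSCR and 4.85 ± 0.727 (SD, n = 4) in shPTBP1, between 7.53 and 11.8 and between 4.05 and 5.65 respectively. The ratio does not depend on the normalization between libraries. Because CD74 hardly varied, it restates the separation of the HLA-DRB1 counts, and it is given without a test.

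HLA-DMA, the alpha chain of the peptide exchange factor, was counted 14, 18, 12 and 23 times in shSCR replicates 1 to 4 and 10, 10, 18 and 8 times in the shPTBP1 replicates. The groups overlapped, since shPTBP1 replicate 3 reached the second highest shSCR count. The level was 10.7 ± 3.09 CPM (SD, n = 4) in shSCR and 7.48 ± 2.99 CPM (SD, n = 4) in shPTBP1, with a log2 fold change of -0.52 (95% interval -1.21 to 0.18, edgeR adjusted p = 0.423). A fall to 0.431 of the control level and a rise to 1.13 times it both lie within this interval. Its partner chain HLA-DMB had 1 count in shPTBP1 replicate 1 and 1 each in shSCR replicates 3 and 4.

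HLA-DRA, the alpha chain that pairs with HLA-DRB1, was counted 2, 3, 2 and 3 times in shSCR replicates 1 to 4 and 3, 3, 4 and 4 times in shPTBP1 replicates 1 to 4, all on HLA-DRA-202. The summed counts were 10 and 14, a ratio of 1.42 with an exact counting interval of 0.586 to 3.57. At this depth no difference in HLA-DRA was detectable, although 3 counts in a library correspond to 1.86 to 1.96 CPM. Per kb, the lowest HLA-DRB1 library (7.76 CPM) was above the highest HLA-DRA library (2.13 CPM). Without division by length these libraries had 9.49 and 2.63 CPM. HLA-DQB1, the beta chain of HLA-DQ, was counted 3, 3, 5 and 9 times in shSCR replicates 1 to 4 and 2, 0, 3 and 2 times in the shPTBP1 replicates. The groups met at 3 counts, and the ratio of the sums, 7 to 20, was 0.355 with a counting interval of 0.127 to 0.873 that leaves out the spread between replicates. The gene was below the filter and not tested. Of the 9 counts in shSCR replicate 4, 6 were on HLA-DQB1-207, a transcript without a defined coding sequence that had no count in another library, and the remaining 21 counts of the gene fell on the coding HLA-DQB1-201 and HLA-DQB1-204. HLA-DQA1 had its single count in shSCR replicate 1, and HLA-DPA1 in shSCR replicate 3.

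Summed over the 8 HLA genes, the libraries held 50 to 78 counts in shSCR and 31 to 41 in shPTBP1, with means of 60.8 ± 12.8 and 34.8 ± 4.35 counts (SD, n = 4 each). HLA-DRB1 made up 58.6% ± 6.12 of them in shSCR and 51.7% ± 10.03 in shPTBP1, and the other 7 genes together had 25.2 ± 7.37 and 17.0 ± 5.48 counts, with ranges of 20 to 36 and 13 to 25 that overlap. The sums are given without a test.

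The study also asked how PTBP1 KD alters isoform usage. CD74 encodes a short and a long form of the invariant chain, which differ by 1 exon. CD74-202, the short form, took 91.9% ± 1.73 of CD74 counts in shSCR and 91.3% ± 2.04 in shPTBP1 (SD, n = 4 each, exact permutation p = 0.657). CD74-201, the long form, took 7.56% ± 1.57 and 7.55% ± 1.88 (SD, n = 4 each, exact permutation p = 0.971). It was counted 29, 25, 35 and 22 times in shSCR replicates 1 to 4 and 27, 31, 18 and 35 times in the shPTBP1 replicates, 111 times in each group. Both changes were smaller than the SD between libraries. With HLA-DMA-201, which took 97.1% and 91.9% of HLA-DMA counts (exact permutation p = 0.2), 3 shares were tested, and their adjusted p were 0.971, 0.971 and 0.6. Across all isoforms, diffSpliceDGE of edgeR tested CD74-201 and CD74-202 and called 0 of 2, with unadjusted p of 0.968 and 0.996, against 1.12% of the 5464 isoforms called at an adjusted p under 0.05 and a share change of at least 10 percentage points. Limma's diffSplice called 0 as well.

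The exon that CD74-201 has and CD74-202 lacks is 192 bases long, or 64 codons, and lies at chr5:150403121-150403312 on the minus strand. It encodes the thyroglobulin-type domain known from the long form, and is shown in capitals with 10 bases of each neighbouring exon.
CD74-201 exon: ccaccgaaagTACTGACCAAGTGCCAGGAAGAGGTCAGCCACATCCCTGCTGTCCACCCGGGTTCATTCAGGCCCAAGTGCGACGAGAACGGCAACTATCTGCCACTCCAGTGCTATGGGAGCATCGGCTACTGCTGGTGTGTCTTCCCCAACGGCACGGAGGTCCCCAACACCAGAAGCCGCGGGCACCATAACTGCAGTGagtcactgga

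CD74-203, a rare coding form, leaves out 2 further exons of 96 and 88 bases, 184 bases in all, which is not a multiple of the codon length. Its junction is shown with 20 bases of either exon, the second in capitals.
CD74-203 junction: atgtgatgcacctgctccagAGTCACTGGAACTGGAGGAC
It was counted once in each shSCR library and 4, 2, 4 and 6 times in shPTBP1 replicates 1 to 4. Pooled over libraries, it made up 16 of 1466 CD74 counts in shPTBP1 (1.09%, exact 95% binomial interval 0.625% to 1.77%) and 4 of 1469 in shSCR (0.272%, 0.0742% to 0.696%). The isoform was below the filter on low counts and was singled out after its values were seen, so the difference was not tested. These intervals cover counting error only. Retained intron transcripts of CD74 had 1 count in shPTBP1 and 4 in shSCR.

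**Figure D3:**
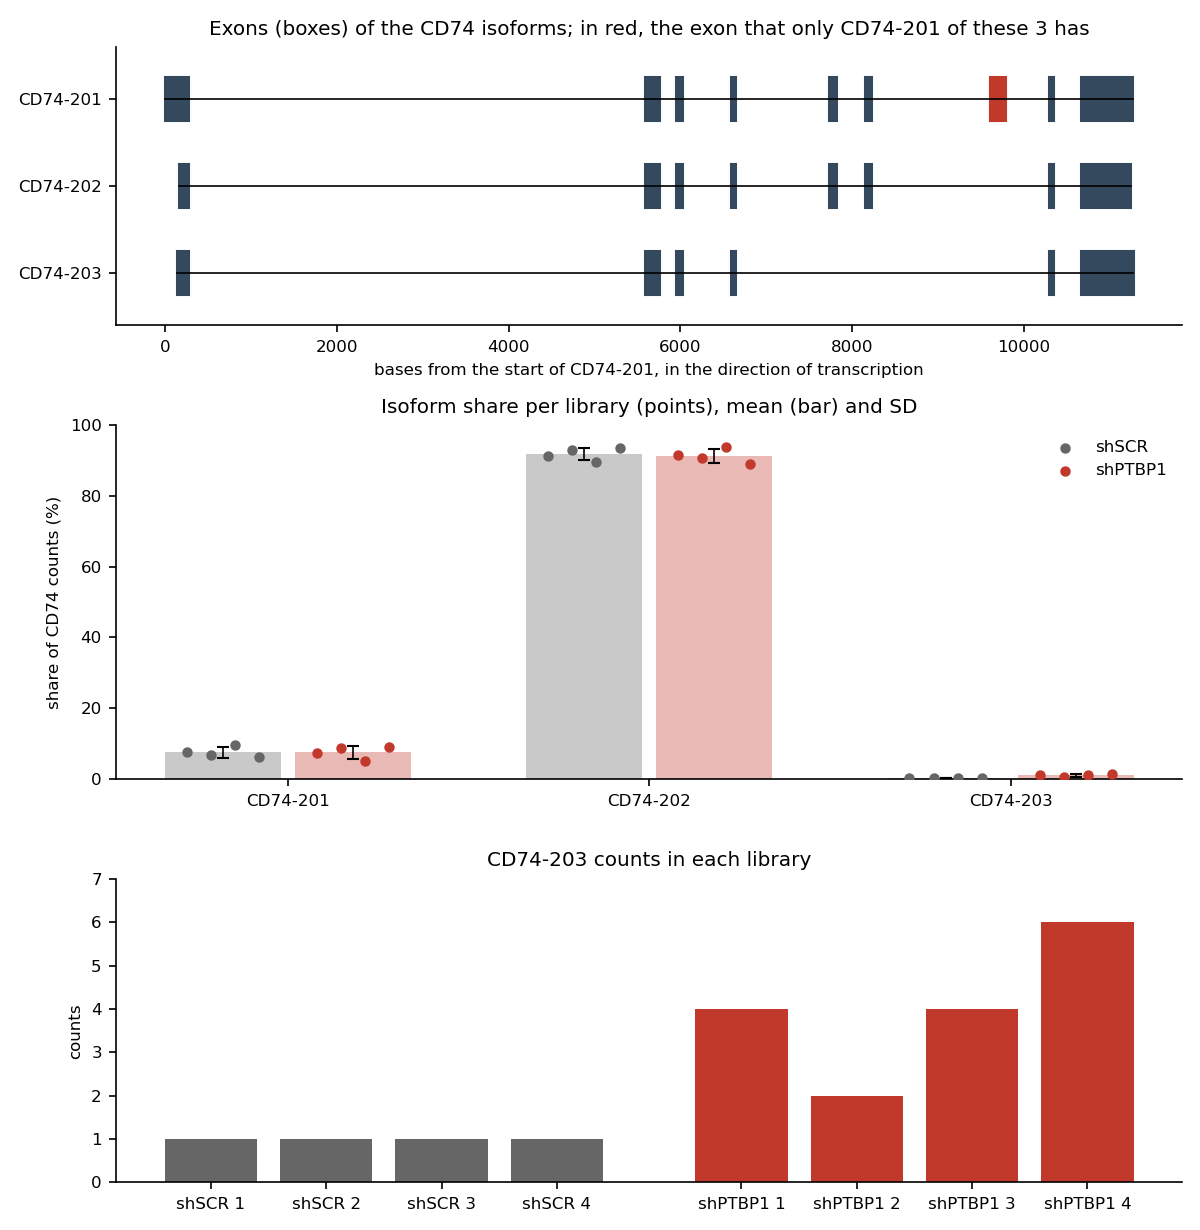
Top, exons (boxes) of the 3 CD74 isoforms with most counts, in bases from the start of CD74-201 on the x axis, with the exon that only CD74-201 of these has in red. Middle, the share of CD74 counts (%, y axis from 0) per library as points with the mean as a bar and the SD as error bar, n = 4 libraries per group; bottom, counts of CD74-203, 1 in each shSCR library and 2 to 6 in the shPTBP1 libraries.

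Of the machinery around the members, the lists of genes below were written from general knowledge of the pathway, with earlier results of these data known. In the class II locus, 10 other annotated genes had 3 counts in all, from HLA-DRB5 and HLA-DOA in shSCR replicate 2, and none could be tested. Of 14 genes of class II transcription 11 were tested, and edgeR called 1 lower and 0 higher, against 3.19% and 2.36% of all tested genes. At an unadjusted p under 0.05 by edgeR, 4 were lower and 0 higher. The share of all tested genes at that looser threshold is not given, so this count has no reference. The median log2 fold change was -0.29 beside -0.00 for all tested genes, a difference that was not tested. The called gene was RFXANK, a subunit of the RFX complex on the X box. It had 121 to 149 CPM in shSCR and 98.0 to 117 CPM in shPTBP1, without overlap. It fell by 0.36 on the log2 scale (SE 0.09, adjusted p = 0.0308 by edgeR), a call that was kept without shPTBP1 replicate 3 or shSCR replicate 1 and lost without any of the 6 other libraries (edgeR adjusted p of 0.0606 to 0.102) and under DESeq2 (adjusted p = 0.0611). Its complex partners, named here after their values were seen, were not called, with log2 fold changes of -0.38 for RFX5 (edgeR adjusted p = 0.245) and 0.20 for RFXAP (edgeR adjusted p = 0.663).

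Interferon gamma is the best known inducer of CIITA. Of 11 genes of its signalling 5 were tested, and 0 were called by edgeR, DESeq2 or limma-trend or had an unadjusted p under 0.05 in any of them. Of all tested genes, edgeR called 3.19% lower and 2.36% higher. The interferon-induced genes SOCS1 and GBP2 were listed at 0, and GBP1 and SOCS3 had 1 count each.

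Of 14 genes of endosomal processing 11 were tested, and edgeR called 1 lower and 2 higher, against 3.19% and 2.36% of all tested genes. The median log2 fold change was -0.01. CTSH, a cathepsin with aminopeptidase activity, was lower in shPTBP1, with 59.5 to 67.1 CPM against 77.4 to 84.7 CPM in shSCR (-0.37 ± 0.09 SE on the log2 scale, adjusted p = 0.0317 by edgeR). The call was kept without shSCR replicate 1 and lost without any of the 7 other libraries (edgeR adjusted p of 0.0594 to 0.0894). It was also lost under DESeq2 (adjusted p = 0.145), which called 0 genes of this list lower and 2 higher, and with protein coding transcripts only (edgeR adjusted p = 0.0943). Limma-trend kept the CTSH call (adjusted p = 0.021) and called 2 genes of this list lower and 2 higher, beside 272 lower and 129 higher of all 7597 genes it tested. CTSC, the cathepsin that activates granule proteases, was higher in shPTBP1, with 277 to 302 CPM against 210 to 255 CPM (0.34 ± 0.07 SE on the log2 scale, adjusted p = 0.0166 by edgeR), as was LAMP2, a lysosomal membrane protein, with 513 to 563 CPM against 418 to 475 CPM (0.29 ± 0.06 SE on the log2 scale, adjusted p = 0.0168 by edgeR). The CTSC call was lost without shPTBP1 replicate 3 or 4 (edgeR adjusted p of 0.0570 and 0.0538), and that of LAMP2 without shPTBP1 replicate 3 or 4 or shSCR replicate 4 (0.0569, 0.0566 and 0.0584). CTSS, the cathepsin best known for cutting CD74, had 53.2 CPM in shSCR and 52.9 CPM in shPTBP1.

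CD74 also acts at the cell surface as a receptor of MIF. Of 6 genes of this role 5 were tested and 0 called by edgeR, against 3.19% of all tested genes called lower and 2.36% higher. DESeq2 called 0, and limma-trend called 1 lower, beside 272 of all 7597 genes it tested. At an unadjusted p under 0.05 by edgeR, 1 was lower and 2 higher. The share of all tested genes at that looser threshold is not given, so these counts have no reference. MIF itself had a log2 fold change of -0.16 (95% interval -0.28 to -0.03, edgeR adjusted p = 0.140). Of 4 genes of surface turnover and 6 of costimulation, 1 of each was tested (CD82 and CD58) and 0 were called by edgeR, DESeq2 or limma-trend, adjusted or not. The ubiquitin ligase MARCHF1, which removes class II from the surface, and CD80 were listed at 0.

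The class I genes, which show peptides to CD8+ T cells, were set beside class II. No tested gene of this list was called higher by edgeR, DESeq2 or limma-trend, or had an unadjusted p under 0.05 in that direction (0 in each). Of all tested genes, edgeR called 2.36% higher and 3.19% lower. HLA-E fell by 0.84 on the log2 scale (SE 0.15, edgeR adjusted p = 0.0072) and kept the call in 8 of 8 fits without 1 library. HLA-C (log2 fold change -0.25, edgeR adjusted p = 0.0272), PDIA3 (-0.37, 0.0208) and CALR (-0.22, 0.0434) were called lower as well. Of the tested genes of this list 7 were not called by edgeR. Some genes of the list are not reported here, so no share of lower calls is given. The HLA-C call was lost without shPTBP1 replicates 2, 3 or 4 or shSCR replicates 3 or 4 (edgeR adjusted p of 0.0708 to 0.0938), that of PDIA3 without shPTBP1 replicates 1 or 2 or shSCR replicates 2 or 4 (0.0504 to 0.0729), and that of CALR without any of the 8 libraries (0.0565 to 0.110). With protein coding transcripts only, the log2 fold change of PDIA3 was -0.17 (edgeR adjusted p = 0.496). The light chain B2M had 6098 CPM in shSCR and 6092 CPM in shPTBP1, with a log2 fold change of -0.00. HLA-DRB1 and the class I heavy chains HLA-C and HLA-E were thus called lower, though of these calls only that of HLA-E was kept without each library. CD74 and B2M differed by less than the spread between replicates. HLA-DRA, the chain that pairs with HLA-DRB1, had too few counts to be tested. Whether the lower levels share a cause was not tested.

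**Figure D4:**
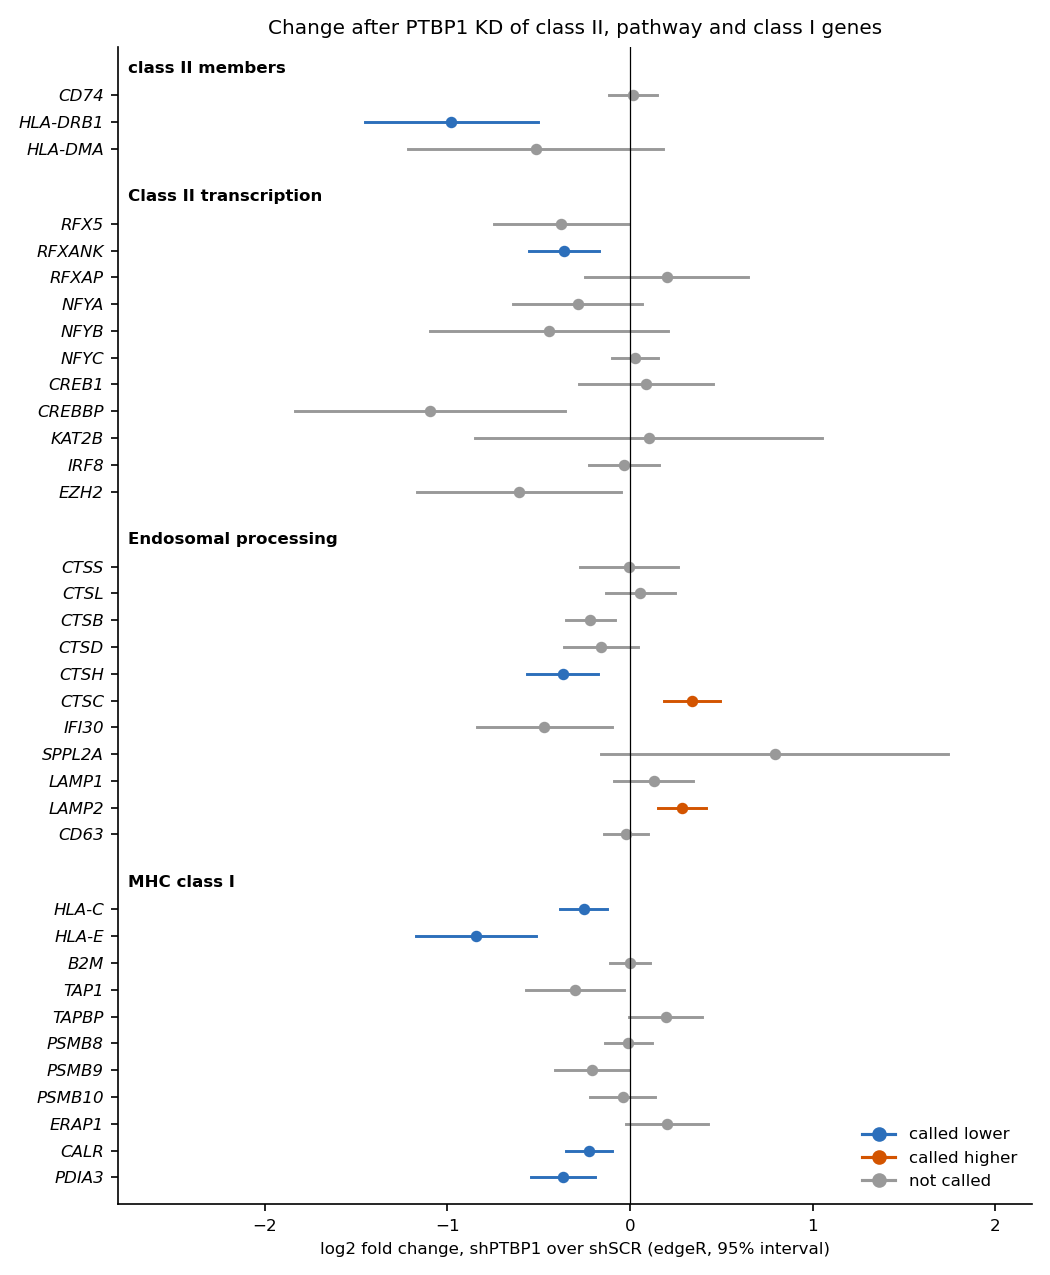
Log2 fold change of shPTBP1 over shSCR (x axis, edgeR, point) with its 95% interval (line) for the 3 tested members and for tested genes of class II transcription, endosomal processing and MHC class I. Blue marks genes called lower and orange genes called higher at an adjusted p under 0.05; HLA-DRB1 at -0.98 stands with HLA-E at -0.84, and CD74 lies at 0.02.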

How the data were processed

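The authors extracted RNA (RNeasy), made cDNA libraries with nanopore PCR kits (SQK-PCS109 and SQK-PBK004), sequenced them on a PromethION, aligned reads to hg38 with minimap2, kept those above a mapping quality of 50 and counted annotated transcripts with StringTie. Versions and annotation are not given in the sources used here. The deposited table of counts holds whole-number counts per transcript, without normalization. A second deposited table, named TPM, holds CPM by the authors, without division by length, equal to the counts per 1000000 to within 1e-06. All columns could be mapped to a sample.

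Transcripts were matched by identifier, without version, to GENCODE v44 (252562 of 254070) and summed per gene. Groups came from the labels. Genes were tested with edgeR 4.0.16 (TMM, filterByExpr with a minimum count of 10, quasi-likelihood test, group as the only term, Benjamini-Hochberg over all genes tested), isoform usage with diffSpliceDGE, and single values by exact permutation. Squared count differences between replicates of a group were, relative to counting error, 2.28 to 4.71 as a mean over genes and 0.607 to 1.07 as a median, against a median of 0.455 for counting alone, so none was treated as a copy. Amplified cDNA molecules are not independent, so the counting and binomial intervals, and the limit of 3 counts taken for a gene at 0, are too narrow. The edgeR intervals rest on the spread between libraries. Alternatives were DESeq2 1.42.0, its size factors in edgeR, no filter, a filter at a mean of 50 counts, limma-trend (limma 3.58.1) on log2(CPM + 1), protein coding transcripts only, the replicate number as a block, and leaving out each library. For isoforms they were limma's diffSplice, a mean of at least 10 counts and minimum share changes of 5 and 20 points. Tests were tried on simulated counts first.

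Some genes of the lists are not reported here. Named were all 10 members, the called genes of each list (up to 6, those left out excepted), the 5 genes most correlated with CD74, and isoforms with a mean of at least 10 counts. The same likeness was planned for HLA-DRA, whose counts were too low. The members and lists were chosen with earlier results of these data known. Computations used matplotlib 3.10.9, scipy 1.17.1, pandas 2.3.3 and numpy 2.4.6 in Python 3.11.15, and R 4.3.3.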

Additional observations from a re-analysis of the deposited data

How the results depend on the processing

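HLA-DRB1 was called lower under every alternative that tested it other than fits without 1 library, with log2 fold changes of -0.999 to -0.946 and adjusted p of 0.0116 to 0.0477, DESeq2 giving the highest. With a mean of at least 50 counts the gene was not tested and 0 members were called lower, and the fits without 1 library called 0 to 1. Summing HLA-DRB1 and HLA-DRB5, an alternative added after the data were seen, left 1 called. CD74 changed sign with limma-trend (-0.0226) and with a mean of at least 50 counts (-0.0024), and was not called in any fit. The share of CD74-201 changed by -0.54 to 0.85 percentage points and that of CD74-202 by -1.47 to 0.16 without 1 library, so their signs are not determined. With the replicate block 1 member was called lower and 0 higher (186 genes lower and 137 higher in all), and the calls of CTSH, HLA-C and CALR were lost (adjusted p of 0.0618, 0.0596 and 0.0686). Same-numbered libraries of the groups correlated by no more than 0.00889, so the numbers were not treated as pairing. Without the filter on low counts these 3 calls were lost as well (0.0729, 0.0742 and 0.0553). The fits without 1 library called 107 to 190 genes lower and 77 to 168 higher. DESeq2 called 157 genes lower and 157 higher and gave no adjusted p for HLA-DMA. The 5 planned ratios between partner chains could not be tested, because each had a gene under 10 counts in a library. HLA-DRA, HLA-DQB1, HLA-DMB, HLA-DPA1 and HLA-DQA1 had 1 to 27 counts in all and were below the filter on low counts. Whether depth or a loss of reads in mapping set these low counts was not tested.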
